A study of Mus musculus with 10 samples.

Results

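Collagen VI is built from chains encoded by 6 mouse genes, Col6a1, Col6a2, Col6a3, Col6a4, Col6a5 and Col6a6, and these genes were followed in tumors removed before immunotherapy. The members were the rows of the count table whose gene symbol is one of these names. All 6 of 6 were found among the 36009 rows, and all 6 were among the 15767 features that passed the filter on low counts. Levels are in CPM, counts scaled to a common library size after normalization by the trimmed mean of M-values (TMM). The family was chosen because Col6a2 had the smallest p among features lower in responders, so the differences of the chains between the groups are given as a description, and no test of them is used as support.

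RNA was sequenced from 10 subcutaneous WEHI-164 tumors, each from another mouse. WEHI-164 is an established fibrosarcoma line from the BALB/c mouse, grown here in wild-type female BALB/c animals, so the tumor cells are themselves of the fibroblast lineage. Every piece was untreated when most of the tumor was cut out, and a hydrogel that releases poly(I:C), a synthetic double-stranded RNA sensed by innate immune receptors, was then laid on what was left. The 5 responders (RS, tumors 5, 9, 10, 11 and 12) later regressed completely and the 5 non-responders (NR, tumors 1, 2, 3, 6 and 7) grew without delay. The groups share line, strain, sex and genotype, ages were not analysed here, and 1 transplanted line is 1 model of the disease. Totals ran from 16002949 to 31160790 estimated counts in RS and from 19863863 to 28276142 in NR, with means of 23804251 and 23666789 (exact two-sided permutation test, p = 0.968, smallest possible p = 0.00794).

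Type VI collagen is an extracellular matrix protein that forms beaded microfilaments rather than thick fibers. One α1 chain, encoded by Col6a1, and one α2 chain, encoded by Col6a2, wind into a triple helix with the third chain, which usually is α3 from Col6a3 but can be α4, α5 or α6. Monomers pair into dimers and tetramers inside the cell and are joined end to end after secretion, around fibroblasts, muscle, fat and vessels, where they link cells and basement membranes to the fibrillar matrix. Loss of the α1, α2 or α3 chain in people causes muscle disease, and the C-terminal fragment of α3, endotrophin, has been studied in tumors and fat.

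All 6 genes lie on the minus strand of GRCm38. Col6a1, at chr10:76708792-76726168 with 35 exons in its longest coding transcript, is next to Col6a2, at chr10:76595762-76623630 with 28 exons. Col6a3 stands alone at chr1:90765923-90843971 with 44 exons. Col6a4 (chr9:105989454-106096783, 38 exons), Col6a5 (chr9:105856078-105960643, 41 exons) and Col6a6 (chr9:105687809-105828160, 37 exons) form a row on chromosome 9. Exons of Col6a4 overlapped those of Gm36993 by 127 bases and of Gm47575 by 162 bases, and exons of Col6a6 overlapped those of Gm38314 by 63 bases, all on the opposite strand. Whether the counting used strand is not stated in the sources used here, so such reads cannot be told apart. The exons of Col6a1, Col6a2, Col6a3 and Col6a5 overlapped no other annotated exon.

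The sequences before the start sites of the 3 abundant chains are shown because these genes were lower together in most RS tumors. They are from RefSeq, build GRCm38.p6, minus strand, 5′ to 3′, cut where either RefSeq or GENCODE begins the transcript, and capitals mark a GC box. The stretches are chr10:76726169-76726294 for Col6a1, chr10:76623631-76623880 for Col6a2 and chr1:90843972-90844221 for Col6a3.
Col6a1: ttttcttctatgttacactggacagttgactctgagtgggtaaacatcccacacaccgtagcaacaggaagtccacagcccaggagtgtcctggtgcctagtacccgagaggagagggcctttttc
Col6a2: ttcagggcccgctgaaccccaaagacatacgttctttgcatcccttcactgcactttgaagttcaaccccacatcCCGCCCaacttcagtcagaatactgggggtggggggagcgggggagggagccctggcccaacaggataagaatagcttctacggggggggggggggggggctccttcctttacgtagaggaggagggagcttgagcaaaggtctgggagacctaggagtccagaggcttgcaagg
Col6a3: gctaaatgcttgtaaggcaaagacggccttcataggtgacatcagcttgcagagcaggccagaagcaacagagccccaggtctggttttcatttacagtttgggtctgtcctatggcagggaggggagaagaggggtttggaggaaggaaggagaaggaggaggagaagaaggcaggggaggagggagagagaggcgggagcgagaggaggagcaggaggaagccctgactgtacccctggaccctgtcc

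Each gene's full RefSeq window of 300 bases, around the RefSeq start site farthest upstream, was searched on both strands for the letters of the GC box (GGGCGG), the CCAAT box, the TATA box (TATAAA) and the AP-1 site (TGACTCA). No matches overlapped. The window of Col6a2 held 1 GC box, at 175 bases before the start (shown on the opposite strand), and 35.9% of 27025 promoter windows held 1 or more. The window of Col6a1 held 1 TGACTCA, beyond the stretch shown and inside the transcript that GENCODE begins farther upstream. Of all windows 5.17% held 1 or more. Col6a3 held none of the 4, and none of the 3 windows held a CCAAT or TATA box, found in 38% and 14.2% of windows. These are matches of letters and not shown to be bound. GC content was 57.3%, 56.7% and 56.3% for Col6a1, Col6a2 and Col6a3, beside a median of 52.7%.

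The α1, α2 and α3 genes were expressed strongly and those of the alternative chains α4, α5 and α6 barely at all. Per kilobase of the longest coding transcript, the mean level over the 10 tumors was 138 ± 24.4 CPM per kb for Col6a1 (SD, n = 10), 134 ± 11.3 for Col6a3 and 53.7 ± 11.3 for Col6a2. It was 0.362 ± 0.192 CPM per kb for Col6a5, 0.204 ± 0.0698 for Col6a6 and 0.0867 ± 0.0243 for Col6a4. Among 34 collagen genes that passed the filter Col6a1 ranked 3rd and Col6a3 4th by this level, behind Col3a1 (402 CPM per kb) and Col1a1 (172 CPM per kb), the main fibril-forming collagens, and ahead of Col1a2 (102 CPM per kb). Col6a2 ranked 9th, Col6a5 26th, Col6a6 29th and Col6a4 32nd. With the union of all annotated exons as length, Col6a1 and Col6a3 kept their ranks, whereas Col6a2, whose length is 8326 instead of 4653 bases, was at 30 CPM per kb and rank 13. Of the summed level per kb of Col6a3, Col6a4, Col6a5 and Col6a6, Col6a3 made up between 99.2% and 99.7% in the 10 tumors, with a median of 99.5%.

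**Figure D1:**
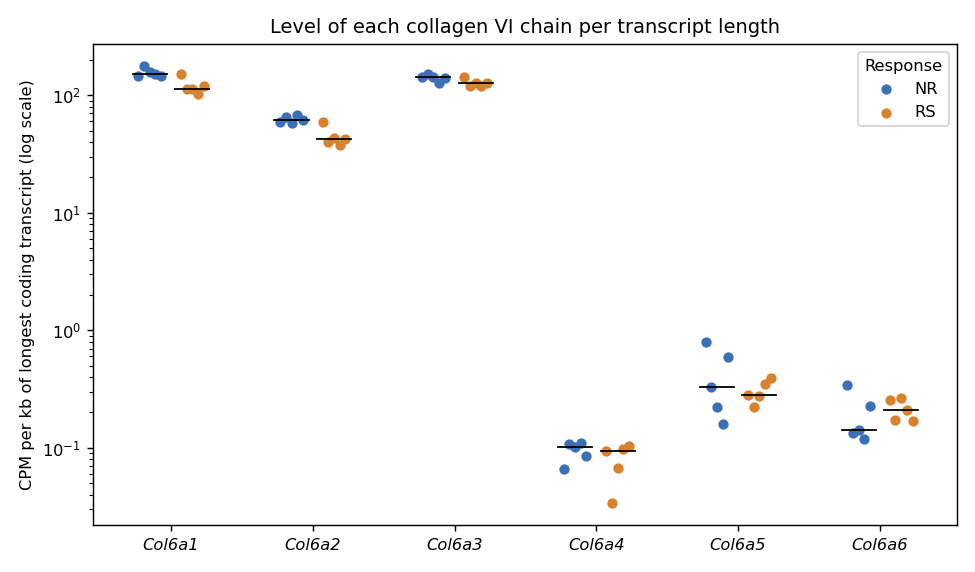
Level of the 6 chains in each tumor, as CPM per kb of the longest coding transcript on a log scale, with NR in blue, RS in orange and a bar at each group's median. Col6a1, Col6a2 and Col6a3 lie between 38.1 and 178 CPM per kb, and Col6a4, Col6a5 and Col6a6 between 0.0339 and 0.791 CPM per kb.

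The order was clear for some neighbors but not for all. Col6a2 lay below both of the other abundant chains in 10 of 10 tumors. Col6a1 and Col6a3 did not keep an order, with Col6a1 above Col6a3 in 6 of 10 tumors, and their place also depends on the length taken, since the union of all annotated exons gave a Col6a1 to Col6a3 ratio from 0.954 to 1.32. The values of Col6a5 and Col6a6 overlapped between tumors, but within each of the 10 tumors Col6a5 was above Col6a6 and Col6a6 above Col6a4. The ratio per kb of Col6a5 to Col6a6 was as low as 1.05 (RS 10, 52 against 47 counts). That of Col6a6 to Col6a4 was as low as 1.07 (NR 6, 23 against 18 counts), so the order in single tumors is not secure. Estimated counts behind these values ran from 19299 to 42603 for Col6a3, 7403 to 20473 for Col6a1 and 3004 to 8557 for Col6a2, but only from 33 to 167 for Col6a5, 23 to 67.8 for Col6a6 and 4 to 22 for Col6a4. Values of Col6a1, Col6a2, Col6a3 and Col6a4 were whole to within 0.01 in 10 of 10 tumors, whereas those of Col6a5 were whole in 5 and those of Col6a6 in 3. Values that are not whole can arise where reads are shared out between features, which was not traced here.

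Col6a1, Col6a2 and Col6a3 were lower in 4 of 5 RS tumors than in any NR tumor, and the fifth, RS 5, lay within the NR range for all 3. The largest difference was that of Col6a2, whose product no other chain of the family replaces. In NR tumors 1, 2, 3, 6 and 7 Col6a2 was at 278, 306, 272, 317 and 286 CPM. In RS tumors 9, 10, 11 and 12 it was at 188, 202, 178 and 197 CPM, and in RS 5 at 275 CPM. The 4 low tumors were thus separated from every other tumor by a gap, and only RS 5 bridged the groups. The means were 208 ± 38.8 CPM in RS and 292 ± 19.3 CPM in NR (SD, n = 5 each), which gave a log2 fold change of -0.49 (SE 0.10). Without RS 5 the RS mean was 191 ± 10.6 CPM (n = 4) and the log2 fold change -0.61 (SE 0.06).

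Col6a1, which encodes the α1 chain found in every collagen VI monomer, had the same arrangement of tumors. In NR tumors 1, 2, 3, 6 and 7 it was at 593, 732, 645, 627 and 602 CPM. In RS tumors 9, 10, 11 and 12 it was at 463, 459, 421 and 498 CPM, and in RS 5 at 620 CPM. RS 5 again sat among the NR tumors, above NR 1 and NR 7. The means were 492 ± 76.4 CPM in RS and 640 ± 55.3 CPM in NR, a log2 fold change of -0.38 (SE 0.09), or -0.47 (SE 0.07) without RS 5.

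Col6a3, which encodes the long α3 chain and the endotrophin fragment, differed least of the 3. In NR tumors 1, 2, 3, 6 and 7 it was at 1453, 1522, 1447, 1299 and 1409 CPM. In RS tumors 9, 10, 11 and 12 it was at 1207, 1276, 1206 and 1285 CPM, and in RS 5 at 1457 CPM. RS 5 exceeded 4 of the 5 NR tumors, and RS 12 and NR 6 nearly met. The means were 1286 ± 102 CPM in RS and 1426 ± 82 CPM in NR, a log2 fold change of -0.15 (SE 0.06), or -0.19 (SE 0.05) without RS 5. In bulk tumor RNA, fewer cells that express a gene and less of its RNA per cell cannot be told apart.

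**Figure D2:**
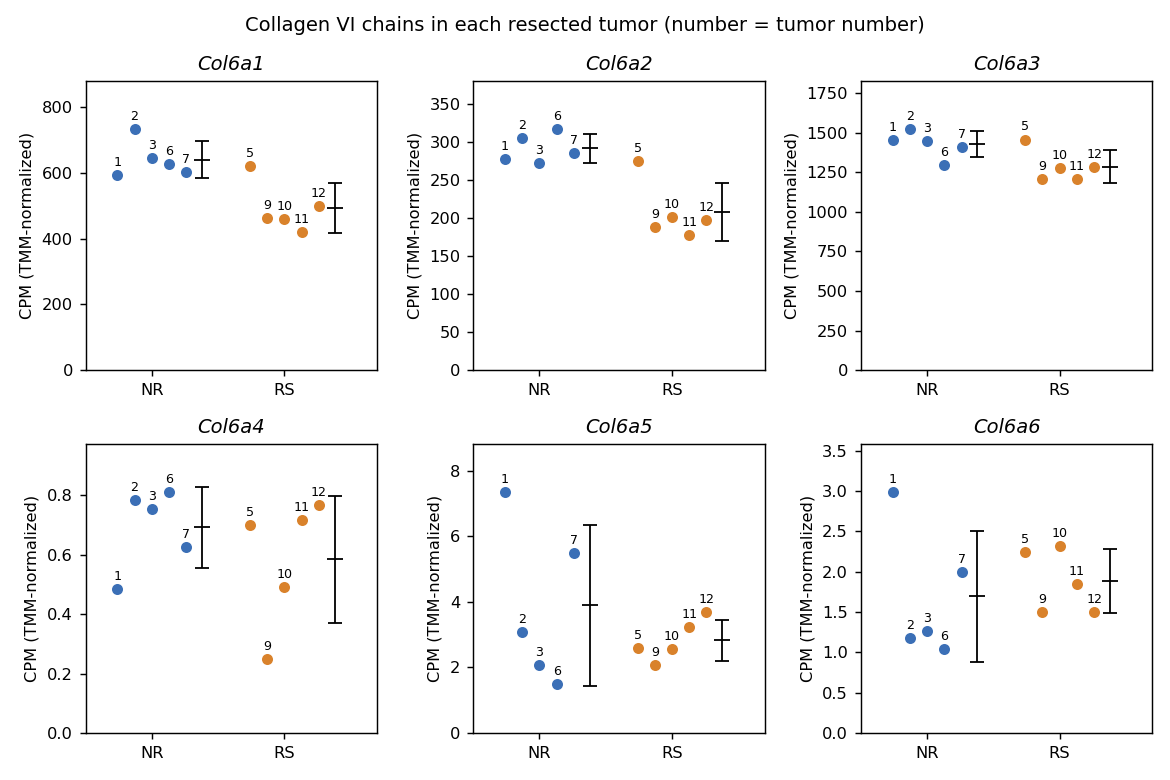
TMM-normalized CPM of each chain in each tumor, with the tumor number above each point and the mean and SD of each group of 5 beside it. In the upper row RS tumors 9 to 12 lie below every NR tumor and RS 5 lies among the NR tumors, whereas in the lower row the groups overlap.

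The alternative chains did not separate the groups. Col6a4, an intact gene in the mouse that is broken in people, was at 0.484, 0.786, 0.755, 0.812 and 0.626 CPM in NR tumors 1, 2, 3, 6 and 7 and at 0.699, 0.25, 0.493, 0.716 and 0.767 CPM in RS tumors 5, 9, 10, 11 and 12. Its log2 fold change was -0.19 (SE 0.28), and it ran from -0.30 without RS 12 to -0.03 without RS 9. Such values rest on 22 counts or fewer, and the SE exceeded the difference.

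Col6a5 varied most within NR, at 7.35, 3.07, 2.06, 1.49 and 5.48 CPM in tumors 1, 2, 3, 6 and 7, against 2.60, 2.06, 2.57, 3.22 and 3.68 CPM in RS tumors 5, 9, 10, 11 and 12. Its log2 fold change was -0.45 (SE 0.36), and it ran from -0.65 to -0.10 when each tumor was left out in turn. Col6a6 was at 2.99, 1.18, 1.26, 1.04 and 2 CPM in the same NR tumors and at 2.25, 1.5, 2.32, 1.85 and 1.5 CPM in the same RS tumors. It was the 1 chain with a higher mean in RS, with a log2 fold change of 0.16 (SE 0.28) and a range from 0.03 to 0.46 under the same omissions. NR 1 held the highest value of both genes, and NR 7 the next highest among NR.

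Against the whole table, 5 of 6 chains were lower in RS, beside 51.4% of all features, and the median log2 fold change of the chains was -0.284, beside -0.0036 for all features. The quasi-likelihood test of edgeR, with p adjusted by Benjamini-Hochberg, called 0 of 15767 features (0%) and so 0 chains. At an unadjusted p under 0.05 edgeR counted 1294 features, 663 higher and 631 lower in RS, and 3 of 6 chains were among the 631 (4.0% of features). DESeq2 called 1 feature (0.00634% of those with an adjusted p) and limma 0. In 93 features (0.590%) all 5 RS tumors lay below all 5 NR tumors, and 0 chains were among them. With RS 5 left out, all 4 RS tumors lay below all 5 NR tumors in 411 features (2.61%), which included the 3 abundant chains, and edgeR called 9 of 15695 features (0.0573%), which included Col6a1 and Col6a2. Because the family was chosen on this contrast and RS 5 was set aside for its values, nothing is read from these counts of chains.

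RS 5 is also the 1 responder numbered among the NR tumors, the others being numbered 9 to 12. The labels name no batch, so tumor number and response cannot be told apart in the other 9 tumors.

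The 3 abundant genes did not fall in proportion. The ratio of Col6a3 to Col6a2 per kb was 2.41, 2.29, 2.45, 1.88 and 2.27 in NR tumors 1, 2, 3, 6 and 7 and 2.96, 2.91, 3.13 and 3 in RS tumors 9, 10, 11 and 12. RS 5, at 2.44, was once more among the NR values. The group means were 2.89 ± 0.265 in RS and 2.26 ± 0.224 in NR. The ratio of Col6a1 to Col6a3 went the other way, from 1.01 to 1.19 in NR and from 0.861 to 0.955 in RS tumors 9 to 12, with RS 5 at 1.05. Col6a1 to Col6a2 stayed closest to constant, at 2.70 ± 0.134 in RS and 2.49 ± 0.205 in NR, and the groups overlapped. The length chosen sets the absolute size of a ratio but not how it compares between tumors. They follow from the same values that chose the family and were not tested.

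**Figure D3:**
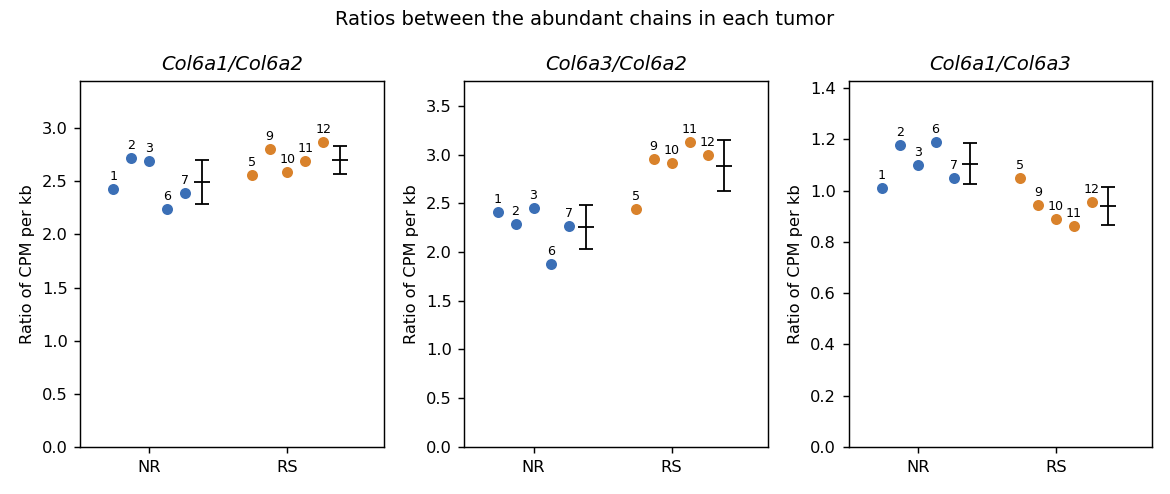
Ratios of CPM per kb between Col6a1, Col6a2 and Col6a3 in each tumor, with tumor numbers above the points and the mean and SD of each group beside them. For Col6a3 to Col6a2, RS tumors 9 to 12 lie from 2.91 to 3.13, above the NR range of 1.88 to 2.45, which also holds RS 5.

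Within the groups the deviations of the abundant chains were compared pair by pair, by Pearson and by rank correlation. No pair passed after adjustment over the Pearson and rank p of all 3 pairs together. The Pearson p were not adjusted on their own. Deviations were from the group means on the log2(CPM + 1) scale, over 10 tumors. For Col6a1 with Col6a2 the Pearson r was 0.854 (exact permutation within groups, p = 0.0207, adjusted 0.0621). The rank correlation of this pair was 0.45 (exact permutation p = 0.246, adjusted 0.295). For Col6a1 with Col6a3 r was 0.815 (exact permutation p = 0.0121, adjusted 0.0621) and the rank correlation 0.6 (exact permutation p = 0.109, adjusted 0.182). For Col6a2 with Col6a3 r was 0.637 (exact permutation p = 0.121, adjusted 0.182) and the rank correlation 0.3 (exact permutation p = 0.462). Without RS 5, r was 0.527, 0.562 and -0.0667 for these pairs over 9 tumors. Without the 2 tumors farthest from the median of the gene named first in each pair it was 0.5 and 0.286 for the pairs of Col6a1, both without NR 2 and RS 5, and 0.835 for Col6a2 with Col6a3, without NR 6 and RS 5.

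Among 5624 features with a mean of 1000 or more counts, the within-group SD on the log2(CPM + 1) scale was 0.186 for Col6a2, wider than in 93.2% of them, 0.172 for Col6a1, wider than in 91.4%, and 0.0985 for Col6a3, wider than in 61.9%. Without RS 5 these SDs were 0.0888, 0.111 and 0.0715, wider than in 54.8%, 73.7% and 34.5%, a fall that the choice of RS 5 by its values of these chains fixes.

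The 10 genes whose deviations were most like the mean of the 3 abundant chains, out of 11192 named genes with a mean of 100 or more counts, included Mtcl1, Rin2, Plekhg5, Arhgap22, Tenm3, Lamb1, Kirrel, Popdc3 and Asap2, with r from 0.951 to 0.98 over 10 tumors. The median over all genes compared was 0.0178, and 50 genes reached 0.9. Mtcl1, first in order, had 47.1 ± 12 CPM in RS and 50.7 ± 5.2 CPM in NR. Lamb1, which encodes the β1 chain of laminin in basement membranes, had 345 ± 27.6 CPM in RS and 367 ± 15 CPM in NR. Of these 10 genes, 2 stayed among the 10 most alike when RS 5 was left out, among them Asap2 (r = 0.915), and 3 stayed with rank correlations. Without RS 5 the r of the genes named here ran from 0.784 (Popdc3) to 0.915, a range that the choice of these genes by r over all 10 tumors largely fixes.

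Genes near the chains gave values close to no change. On chromosome 10, Pcbp3 had a log2 fold change of -0.11 (SE 0.22) and Slc19a1, the reduced folate carrier, of -0.07 (SE 0.07), while Ftcd and Spatc1l did not pass the filter. Beside Col6a3, Cops8 was at 0.00 (SE 0.04), Ackr3 at 0.03 (SE 0.12) and Mlph at -0.07 (SE 0.10), and Prlh did not pass. Pik3r4, which lies 151 bases from Col6a6, was at -0.07 (SE 0.06), Atp2c1 at 0.01 (SE 0.05), Glyctk at 0.01 (SE 0.21) and Wdr82 at -0.09 (SE 0.05). The lowest edgeR adjusted p among these 9 genes was 0.619.

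The genes around collagen VI were described by role, and no gene of any list passed edgeR's test after adjustment over all features. At an unadjusted edgeR p under 0.05, where 4.2% of all features were higher and 4.0% lower in RS, the lists held 1 receptor that was higher and, among lower genes, 2 of 12 matrix partners, 4 of 22 folding genes, 0 of 6 proteases, 6 of 9 fibrillar collagens, 2 of 5 basement membrane collagens, 1 of 5 other collagens with von Willebrand factor A domains and 2 of 10 TGF-beta genes. Among 9 receptors, all of which passed the filter, 4 were higher and 5 lower in RS, with a median log2 fold change of -0.03. Antxr1, an anthrax toxin receptor that binds collagen VI, was at 91.3, 73.4, 82.4, 70.7 and 73.1 CPM in RS tumors 5, 9, 10, 11 and 12 and between 78.5 and 95.6 CPM in NR, a log2 fold change of -0.14 (SE 0.08; edgeR adjusted p = 0.689). The groups overlapped through RS 5 and RS 10. Antxr2, its relative that clears collagen VI, was at 121 ± 8.89 CPM in RS and 115 ± 8.19 CPM in NR. Cspg4, the proteoglycan NG2, was at 3.23 ± 0.355 CPM in RS and 4.01 ± 0.826 CPM in NR (log2 fold change -0.31, SE 0.15). Itgb1, the common β1 integrin chain, was nearly equal, at 890 ± 54 and 911 ± 44.9 CPM. Itga1, the α1 integrin subunit that prefers basement membrane collagen, had the highest log2 fold change of the list, 0.30 (SE 0.08; edgeR adjusted p = 0.58), with RS from 23.1 to 28.4 CPM and 4 of 5 NR tumors from 19.6 to 20.6 CPM, while NR 1 reached 25.3 CPM. Itga10 had a log2 fold change of -0.24 (SE 0.18).

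Of 13 matrix partners 12 passed, 6 higher and 6 lower, with a median of -0.01. Hspg2, the basement membrane proteoglycan perlecan, was at 793, 548, 644, 536 and 670 CPM in RS tumors 5, 9, 10, 11 and 12 and at 807, 910, 788, 740 and 725 CPM in NR tumors 1, 2, 3, 6 and 7. As with the chains, RS 9 to 12 lay below all NR tumors, as in 2.61% of all features, and RS 5 did not. Its log2 fold change was -0.31 (SE 0.10; edgeR adjusted p = 0.58). The small leucine-rich proteoglycans did not share this, with Dcn (decorin) at 60.5 ± 15.9 CPM in RS and 48.3 ± 15.4 CPM in NR and Bgn (biglycan) at 167 ± 21 and 179 ± 22.1 CPM. Matn4, a matrilin, had a log2 fold change of 0.51 (SE 0.32) on values under 1 CPM.

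All 22 genes of collagen folding, modification and export passed, 8 higher and 14 lower, with a median of -0.05. Serpinh1, the collagen chaperone HSP47, was at 1019 ± 78.5 CPM in RS and 1018 ± 45.1 CPM in NR. P3h1, a prolyl hydroxylase of collagen, was named after its values were seen, because all 5 RS tumors, RS 5 included, lay below all 5 NR tumors, at 72.2 CPM or less against 73.8 CPM or more (log2 fold change -0.12, SE 0.04; edgeR adjusted p = 0.58), as in 0.590% of all features. The widest log2 fold changes of the list were in genes of few counts, Colgalt2 at -0.52 (SE 0.31), P4ha3 at 0.24 (SE 0.16) and Fkbp14 at -0.23 (SE 0.13). All 6 proteases passed, 2 higher and 4 lower, with a median of -0.04. Mmp14, a membrane-bound collagenase, was at 306 ± 25.4 CPM in RS and 341 ± 44.8 CPM in NR, Mmp9 had a log2 fold change of 0.41 (SE 0.33) and Mmp11 of -0.29 (SE 0.17). The 3 folding genes other than P3h1 with a lower level at an unadjusted edgeR p under 0.05 were Fkbp10 (log2 fold change -0.19, SE 0.06), Sec24d (-0.17, SE 0.06) and Sec23a (-0.12, SE 0.05), also named after their values were seen.

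The other collagens were, like the abundant chains, mostly lower in RS. Of 11 fibrillar collagens 9 passed and all 9 of those were lower, with a median of -0.20, and 6 had an unadjusted edgeR p under 0.05 (4.0% of all features were lower at that p) while none passed after adjustment. Col1a1, the α1 chain of type I collagen, was at 1022, 797, 941, 974 and 871 CPM in RS tumors 5, 9, 10, 11 and 12 and at 1119, 1116, 1037, 1329 and 977 CPM in NR tumors 1, 2, 3, 6 and 7 (log2 fold change -0.28, SE 0.09). Col3a1, the type III chain, was at 2389, 2101, 2011, 1903 and 2003 CPM and at 2129, 2574, 2288, 2642 and 2342 CPM in the same order (log2 fold change -0.20, SE 0.07). In both genes RS 9 to 12 lay below all NR tumors and RS 5 did not. Col1a2, whose product joins that of Col1a1, overlapped more, at 514 ± 49.5 CPM in RS and 577 ± 145 CPM in NR. Col5a1 had a log2 fold change of -0.26 (SE 0.07; edgeR adjusted p = 0.58) and Col11a2 of -0.42 (SE 0.17). With RS 5 left out, RS 9 to 12 lay below all NR tumors in 4 of 9 fibrillar collagens (Col1a1, Col3a1, Col5a1 and Col11a2), 2 of 5 basement membrane collagens, 1 of 5 other collagens with von Willebrand factor A domains, 2 of 12 matrix partners, 2 of 22 folding genes, 2 of 10 TGF-beta genes, 0 of 9 receptors and 0 of 6 proteases, beside 2.61% of all features. Because RS 5 was set aside for its collagen values, nothing is read from these counts either.

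Among 6 basement membrane collagens 5 passed, with a median of -0.16. Col4a1 was at 293, 203, 228, 172 and 199 CPM in RS tumors 5, 9, 10, 11 and 12 and between 251 and 325 CPM in NR (log2 fold change -0.37, SE 0.13; edgeR adjusted p = 0.58). Col4a2, its partner in the same helix, had a log2 fold change of -0.41 (SE 0.13). RS 9 to 12 lay below all NR tumors in both, as in 2.61% of all features, and RS 5 was again the 1 RS tumor within the NR range. Col4a4 was at -0.16 (SE 0.30). Col4a3 and Col4a5 were higher in RS by less than their SE. Of 7 other collagens with von Willebrand factor A domains, the fold that also makes up most of the α3 chain, 5 passed, 4 lower and 1 higher, with a median of -0.17. The lowest was Col7a1, the anchoring fibril collagen, at -0.27 (SE 0.10), followed by Col20a1 at -0.22 (SE 0.17) and Col28a1 at -0.17 (SE 0.32). With RS 5 left out, all 5 collagens of this list that passed were lower, but the median was -0.04. Of the 10 TGF-beta ligands and targets, the growth factor pathway best known for raising collagen transcription, 9 were lower and 1 higher, with a median of -0.06. Tgfb2 was at 5.40, 3.13, 2.96, 2.24 and 3.49 CPM in RS tumors 5, 9, 10, 11 and 12 and between 4.06 and 7 CPM in NR (log2 fold change -0.52, SE 0.22; edgeR adjusted p = 0.591). Ccn2, a target of the pathway, went the other way (log2 fold change 0.33, SE 0.19), and Tgfbr2 was at -0.19 (SE 0.07).

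**Figure D4:**
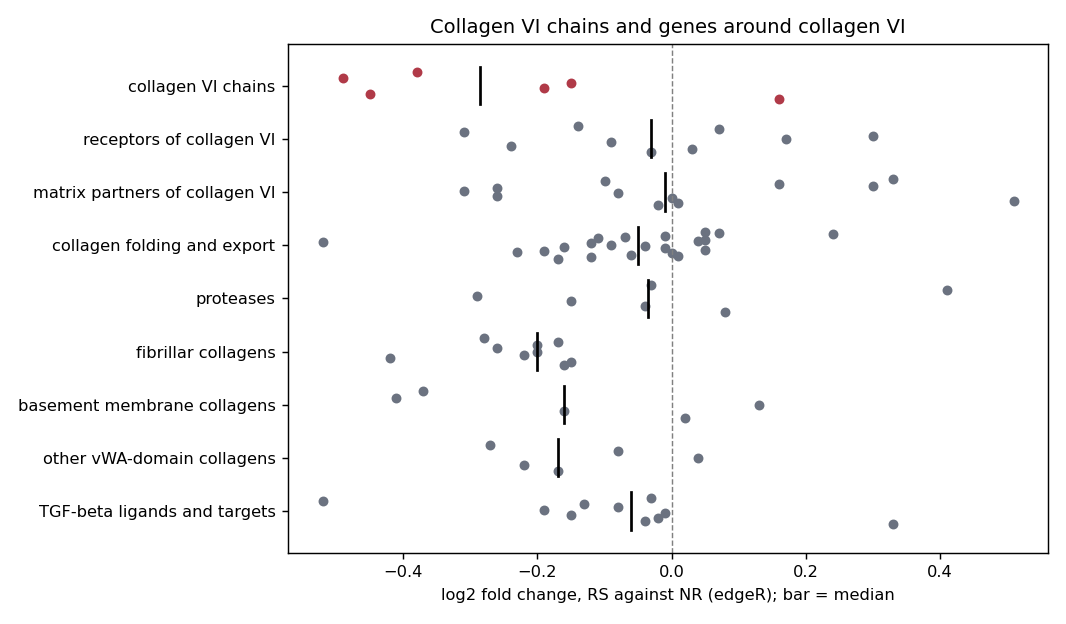
Log2 fold change of RS against NR from edgeR for the 6 collagen VI chains and for the genes of 8 lists that passed the filter, each point 1 gene and each bar the median. The 9 fibrillar collagens lie from -0.42 to -0.15, whereas the lists of receptors, matrix partners, folding genes and proteases lie on both sides of 0.

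The fibroblast list did not follow the chains. All 10 of its genes passed, 7 higher and 3 lower in RS, with a median log2 fold change of 0.22 and a summed level of 286 ± 39.7 CPM in RS and 249 ± 26.4 CPM in NR. Pdpn, its most abundant gene, was at 65.8 ± 8.67 and 54.8 ± 6.83 CPM, and the defining marker Pdgfra at 54.6 ± 5.52 and 56 ± 4.68 CPM. Dcn and Lum stand on both this list and that of the matrix partners, and how much of any list the tumor cells themselves expressed was not tested. Dpt, the other defining marker, was at 7.75 ± 3.15 and 6.63 ± 1.6 CPM. The sums of RS 5, 9, 10, 11 and 12 were 246, 279, 329, 326 and 251 CPM, so the tumors with the lowest collagen VI did not have the lowest fibroblast sums.

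The pericyte and smooth muscle list had 8 of 8 genes past the filter, 4 higher and 4 lower, with sums of 213 ± 20.4 CPM in RS and 235 ± 18.5 CPM in NR and Pdgfrb as its most abundant gene. Its defining markers Rgs5 and Kcnj8 were at 25.5 ± 4.57 and 2.43 ± 0.356 CPM in RS and 22.8 ± 3.08 and 2.74 ± 0.686 CPM in NR. The endothelial list had 7 of 8 genes lower and 1 higher, a median of -0.17 and sums of 164 ± 9.91 CPM in RS and 179 ± 15.9 CPM in NR. Its most abundant gene and defining marker, Pecam1, was the 1 that was higher (72.7 ± 6.54 and 68.2 ± 5.38 CPM), while Cdh5, the other defining marker, was at 41.3 ± 9.03 and 54.1 ± 7.61 CPM. The macrophage list, with C1qa most abundant, had 7 of 8 genes higher, at sums of 1581 ± 196 CPM in RS and 1420 ± 177 CPM in NR. Its defining markers Adgre1 and Csf1r were at 68.9 ± 4.82 and 183 ± 20.8 CPM in RS and 65.1 ± 6.54 and 165 ± 9.58 CPM in NR. In all 3 lists the sums of the groups overlapped.

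The T and NK cell list was highest in the RS tumors in which the abundant chains were lowest. Of its 10 genes 9 passed and all 9 of these were higher in RS, with a median log2 fold change of 0.88, 5 with an unadjusted edgeR p under 0.05 (4.2% of all features were higher at that p) and none after adjustment. With RS 5 left out for its collagen values, edgeR called 1 of the 9, Gzmb (log2 fold change 1.72), and nothing is read from that call. The sum of the list was 45.8 CPM in RS 5 and 147, 154, 228 and 137 CPM in RS 9, 10, 11 and 12. In NR tumors 1, 2, 3, 6 and 7 it was 93.7, 44, 63, 75.4 and 44.2 CPM. The 4 tumors with the lowest Col6a1, Col6a2 and Col6a3 were thus the 4 with the highest T and NK cell sums, and RS 5 lay with the NR tumors in both. Among the NR tumors the order was not kept, since NR 6 had the highest Col6a2 and the next to highest sum. Gzmb, its most abundant gene, was at 64.3 ± 31.6 CPM in RS and 23.2 ± 7.27 CPM in NR. Prf1 was at 41.8 ± 19.7 and 16.8 ± 7.2 CPM, and Gzmb and Prf1 together made up most of each group's mean sum. The 5 genes with an unadjusted edgeR p under 0.05 were Gzmb, Prf1, Nkg7, Klrb1c and Ncr1, named after their values were seen. Log2 fold changes were smaller for the T cell genes Cd3d (0.14, SE 0.26), Cd8a (0.13, SE 0.27) and Cd3e (0.33, SE 0.28). Cd4 was at 0.61 (SE 0.31). The defining markers Cd3e and Ncr1 were at 3.85 ± 1.49 and 5.39 ± 2.39 CPM in RS and 3.07 ± 0.68 and 2.95 ± 1.13 CPM in NR. The part of these cells in the collagen VI difference was not tested.

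**Figure D5:**
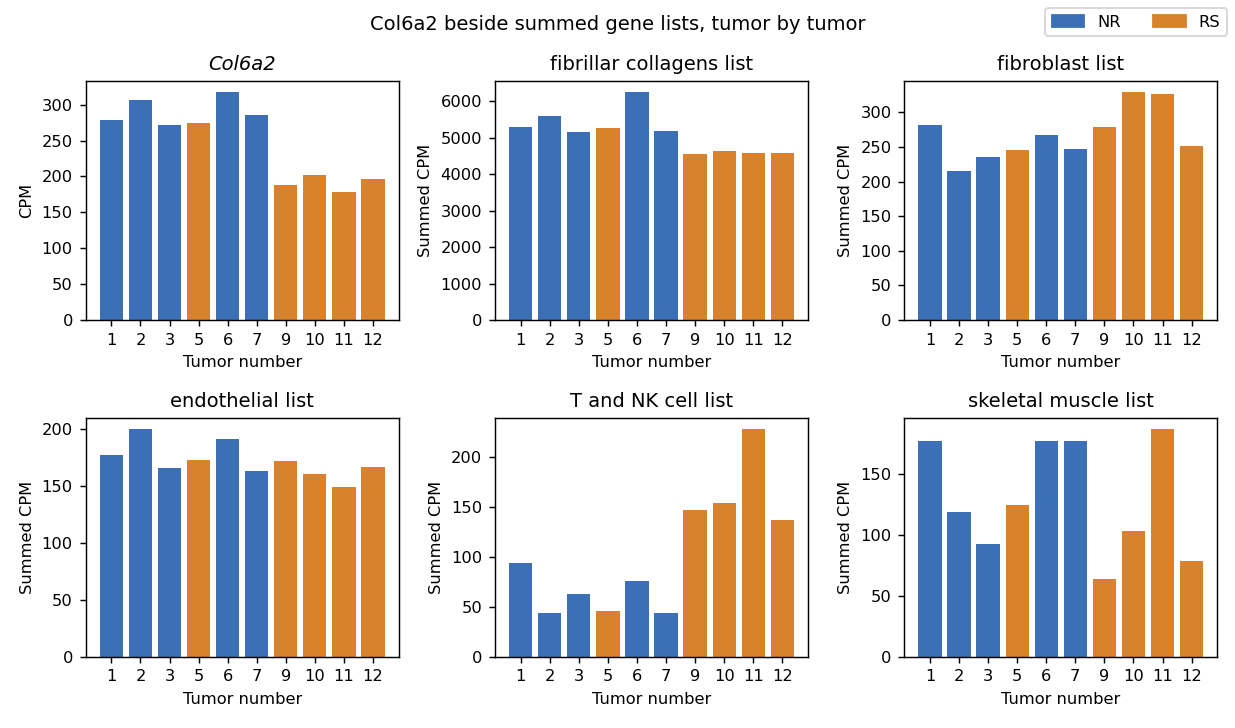
CPM of Col6a2 and summed CPM of 5 gene lists in each tumor, in the order of tumor number, with NR in blue and RS in orange. RS tumors 9 to 12 have the lowest Col6a2 and the highest T and NK cell sums, while fibroblast, endothelial and skeletal muscle sums overlap between the groups.

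The neutrophil list, 5 of 6 genes past the filter, was also higher in RS in all 5, at sums of 33.4 ± 12.2 and 21.8 ± 6.38 CPM, with Csf3r most abundant. S100a8 and S100a9, which define it, were at 1.77 ± 0.857 and 3.57 ± 1.45 CPM in RS and 1.28 ± 0.723 and 2.02 ± 1.3 CPM in NR. Markers of tissue next to the tumor varied within both groups. The adipocyte list was lower in RS in 6 of 6 genes with a median of -0.49, but its sums overlapped (27 ± 8.48 and 31.6 ± 13.2 CPM, mostly Fabp4). Its defining markers Adipoq and Plin1 were near 1 CPM in both groups, with log2 fold changes of -0.40 (SE 0.52) and -0.13 (SE 0.41). The skeletal muscle list was lower in 5 of 6 genes, with a median of -0.25 and sums of 111 ± 47.9 and 149 ± 40.3 CPM, with Acta1 most abundant. Acta1 and Ckm, which define it, had log2 fold changes of -0.22 (SE 0.30) and -0.75 (SE 0.31). RS 11, with the lowest Col6a1 and Col6a2, had the highest muscle sum of all tumors, 187 CPM. Of the keratinocyte list 3 of 6 genes passed, with Krt5, Krt14 and Krt1 below the filter and Krt1 at 0 in every tumor, and of the Schwann cell list 4 of 6, with Sox10 and Cdh19 below it. Sums were 20.2 ± 1.72 and 19.1 ± 0.795 CPM for keratinocytes, mostly Dsp, and 21.8 ± 3.13 and 21.1 ± 0.759 CPM for Schwann cells, with Prx most abundant. The part of these tissues in the collagen VI values was not tested.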

How the data were processed

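The authors quantified transcripts with Kallisto on the mm10 (GRCm38) reference, summarized them to genes with tximport and deposited estimated counts that are not corrected for depth or length. The annotation release is not given in the sources used here. Of the 36009 rows 9580 lack a gene name, and 44 names recur. Recurring names were added together, which left 35958 features, and counts were rounded for edgeR. The CPM minimum that the study states for its time course, equal to 5.86 counts in the smallest library and 11.4 in the largest, had to be exceeded in 3 or more tumors, as it was for 15767 features.

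RS and NR were compared with edgeR 4.0.16 (quasi-likelihood test, TMM, Benjamini-Hochberg adjustment, threshold 0.05) in R 4.3.3. DESeq2 1.42.0, limma 3.58.1, other normalizations and filters, recurring names kept apart and the omission of each tumor were alternatives. The biological coefficient of variation was 10.4%. Counting error adds to it in genes of few counts. Lengths, exons and coordinates were from GENCODE vM21 (GRCm38). RefSeq promoter windows matched 6 of 6 symbols.

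The members, 8 pathway lists and 10 marker lists were chosen with earlier results of these data known. Named were all chains, the 3 genes of each pathway list with the largest change, 11 further genes of interest, the most abundant and defining genes of each marker list, the 10 genes most alike and the nearest coding genes. Col21a1 and Trac were not matched. Of the genes so picked, 3 are not reported here.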

Additional observations from a re-analysis of the deposited data

Results flagged for a closer look

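Over 31 measures in both groups, 62 groups of 5 tumors, 3 values stood apart from the other 4 by Dixon's 95% criterion, where chance gives about 3.1. The log2 ratio of Col6a3 to Col6a2 per kb was 1.28 in RS 5 and between 1.54 and 1.65 in the other RS tumors. The mean log2(CPM + 1) of the TGF-beta ligands and targets was 6.26 in RS 5 and between 5.96 and 6.02 in the others. The mean log2(CPM + 1) of the Schwann cell list was 2.76 in RS 12 and between 2.17 and 2.26 in the others. RS 5 accounted for 2 of the 3.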

How the results depend on the processing

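The 6 chains kept the direction of their difference under each normalization, filter, test and omission that gave them a value. Col6a4 has none under the stricter filter, a CPM above 1 in at least 5 tumors. The widest moves were those of Col6a4, to -0.03 without RS 9, of Col6a5, to -0.10 without NR 1 and -0.65 without NR 6, and of Col6a6, to 0.46 without NR 1 and 0.03 without NR 6, all on few counts. Omitting RS 5 gave 9 called features where all 10 tumors gave 0, and the 10 omissions ran from 0 to 9. DESeq2 called 1, Col6a2. Counts at an unadjusted p under 0.05 ran from 839 (without RS 11) to 2139 (without RS 5), beside 1294.

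With lengths from the union of exons the mean log2 ratio was 2.12 for Col6a1 to Col6a2 (main 1.37), 0.17 for Col6a1 to Col6a3 (main 0.02) and 1.94 for Col6a3 to Col6a2 (main 1.35). The union was longer most of all for Col6a2, at 8326 instead of 4653 bases. Of the 10 genes most alike 3 remained with Spearman correlations, 1 with the group means left in, and from 2 (without RS 5) to 8 (without RS 9) under omissions.

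Genes near 0 changed sign. Under omissions log2 fold changes ran from -0.03 to 0.10 for Ackr3, -0.01 to 0.04 for Atp2c1, -0.36 to 0.01 for Col4a4, -0.01 to 0.03 for Cops8, -0.09 to 0.14 for Glyctk, -0.14 to 0.02 for Mlph, -0.13 to 0.08 for Popdc3 and -0.03 to 0.04 for Serpinh1. With limma Popdc3 was at -0.01 and Serpinh1 at -6.5e-05. The cause was not tested. No paired analysis was possible because tumor numbers are unique across the groups.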
